A study of Danio rerio with 6 samples.

Results

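The genes described here are transcriptional regulators of ciliated cells: the forkhead genes foxj1a and foxj1b, the regulatory factor X genes rfx1a, rfx2, rfx3, rfx4 and rfx5, and the multiciliated cell genes mcidas and myb. They were picked by symbol, and earlier results of these data were known when they and the gene lists below were chosen. Of these 9 symbols 7 were in the count files, out of 14781 genes there, and all 7 passed the filter on low counts that left 12804 genes for testing; rfx5 and mcidas were not analysed here. RNA-seq of adult zebrafish spinal cord compared 3 libraries taken 1 week after transection (1 wpi) with 3 libraries from sham-operated clutchmates. The study used fish of the Ekkwill strain, of both sexes, to ask which genes change while the cord regenerates. In 1 wpi fish the vertebral column and cord had been cut through completely, between operculum and dorsal fin. In sham fish skin and muscle were opened in the same way and the cord was left whole. Both groups gave the cord within 2 mm rostral and 2 mm caudal of the lesion site or of the matching position. The titles call the controls sham and another label calls them uninjured; they are taken here as sham. Nothing read here says how many fish went into a library, and p-values therefore measure only how far these samples differ from each other.

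Motile cilia are hair-like projections built on a ring of microtubule doublets, driven by dynein arms and steered by radial spokes and a central pair. In the spinal cord they stand on the ependymo-radial glia (ERGs) that line the central canal, where they move cerebrospinal fluid. Foxj1 proteins switch on the genes of the motile axoneme, and Rfx proteins bind X-box motifs in the promoters of ciliary genes, both those of motile cilia and those of the transport machinery that every cilium needs. In mammals Multicilin, the product of the mcidas ortholog, starts the making of many centrioles in 1 cell, and Myb acts early in the same fate.

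Counts in genes ranged from 21926842 to 30147448 in 1 wpi libraries and from 19310220 to 24161526 in sham libraries. The share of reads outside annotated genes was 41.2% to 42.1% in 1 wpi libraries. It was 43.8% in sham replicate 1, near the 1 wpi libraries, and 50.9% and 51.3% in sham replicates 2 and 3. Sham replicate 1 stood apart from the other sham libraries. Genes listed for oocytes summed to 824 CPM (read counts scaled to library size, so that libraries can be compared) in it and to between 12.2 and 49.7 CPM in the other 5 libraries, and genes listed for the cell cycle summed to 1747 CPM in it, against 525 and 574 CPM in sham replicates 3 and 2. Scaling was by TMM. The regulators and the lists they act on are therefore given with and without that library. A gene is called where the adjusted p of edgeR's quasi-likelihood test is below 0.05, with Benjamini-Hochberg adjustment over all genes tested. The tissue label was checked with lists of markers. The neuronal genes snap25a, elavl3 and nefma and the glial genes gfap and sox2 were detected in every library. The blood and myeloid markers spi1b and mpx were also detected in all 6, and runx1 was at 0 in all 6, as were the ciliary genes ift122, ttc8, ift27 and dnaaf2. Whether these values of 0 reflect absent RNA or reads lost in annotation or counting was not tested. Genes listed for skeletal muscle summed to 18758 to 63443 CPM in 1 wpi libraries and 9829 to 31213 CPM in sham libraries.

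foxj1a and rfx2 were higher at 1 wpi, and no regulator was called lower. foxj1a was 2.18-fold higher and rfx2 1.49-fold higher. Their relatives foxj1b, rfx1a, rfx3 and rfx4 and the multiciliated cell gene myb did not pass the test. Of the 7 regulators 2 were called higher, beside 5.81% of all genes tested, and 0 were called lower, beside 4.83%. At an unadjusted p below 0.05, 3 of the 7 regulators were higher (foxj1a, rfx2 and rfx4), beside 18.6% of all genes tested, and 0 lower, beside 19.6%. The 3 libraries of 1 wpi all lay above the 3 sham libraries for 4 regulators (foxj1a, rfx1a, rfx2 and rfx4), and such a separation was found for 22.9% of all genes tested in that direction and 21.8% in the other. In these whole-tissue samples a change in the number of cells that carry an RNA and a change in the RNA of each cell cannot be told apart.

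**Figure D1:**
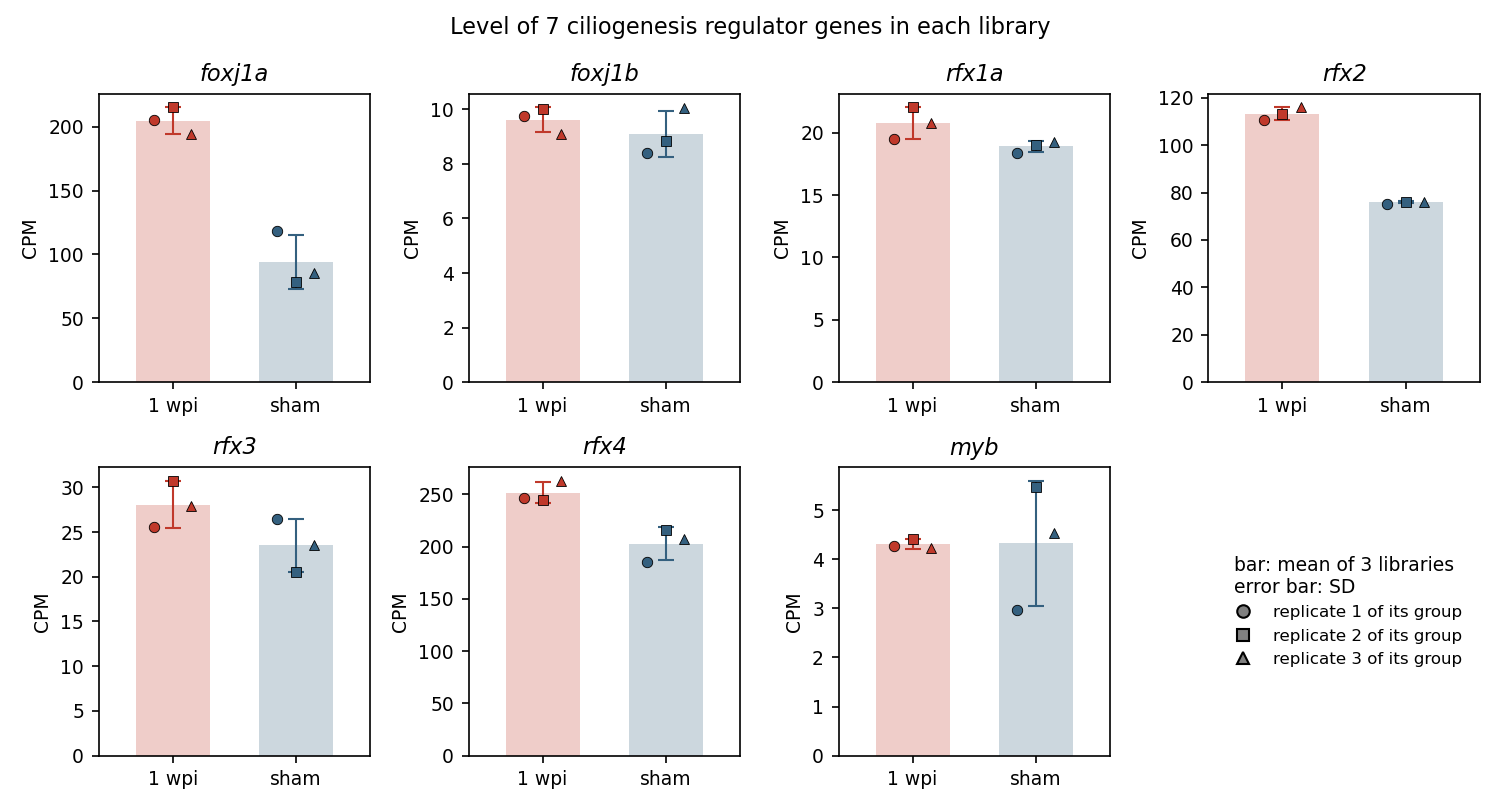
Level of each of the 7 regulators in each library, in CPM on a linear axis that starts at 0 and has its own scale in every panel. Bars are the means of 3 libraries at 1 wpi (red) and 3 sham libraries (blue), error bars are SDs and symbols are single libraries. The red symbols of foxj1a lie between 194 and 215 CPM, above the blue symbols between 78.4 and 118 CPM, and those of rfx2 lie between 110 and 116 CPM, above blue symbols between 75.4 and 76.2 CPM.

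foxj1a, required for motile ciliogenesis in zebrafish embryos, measured 205, 215 and 194 CPM in 1 wpi replicates 1, 2 and 3, against 118, 78.4 and 85.4 CPM in sham replicates 1, 2 and 3. These values rest on 4268 to 5852 reads at 1 wpi and 1688 to 2395 reads in sham cords. Each 1 wpi library was above each sham library, and sham replicate 1 was the highest of the sham libraries. The means were 205 ± 10.4 CPM at 1 wpi and 94.0 ± 21.3 CPM in sham cords (SD, n = 3 each), a log2 fold change of 1.12 with a standard error of 0.164 (adjusted p = 0.0301, edgeR). Among all genes tested its log2 fold change stood at the 97.1 percentile. The exact permutation test (2-sided) gave p = 0.1, which is the smallest p that 3 libraries against 3 allow.

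foxj1b, the paralog of foxj1a, measured 9.75, 9.996 and 9.10 CPM in 1 wpi replicates 1, 2 and 3, against 8.40, 8.82 and 10.03 CPM in sham replicates 1, 2 and 3. The groups overlapped. Its means were 9.62 ± 0.460 CPM at 1 wpi and 9.08 ± 0.846 CPM in sham cords (SD, n = 3 each), and edgeR fitted 0.08 ± 0.120 (SE) as its log2 fold change (adjusted p = 0.637). These values rest on 170 to 278 reads a library. The exact permutation test gave p = 0.4.

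The difference between the paralogs was taken in each library and compared between the groups. On the log2 CPM scale foxj1a exceeded foxj1b by 4.38, 4.42 and 4.403 in 1 wpi replicates 1, 2 and 3, against 3.80, 3.14 and 3.08 in sham replicates 1, 2 and 3. The distance was thus wider in every 1 wpi library, by 1.06 on average (exact permutation p = 0.1, adjusted p = 0.15 over 3 such ratios). Without sham replicate 1 it was 1.29. Counted as reads, with no correction for gene length, foxj1a supplied 95.5%, 95.6% and 95.5% of the reads of the pair in 1 wpi replicates 1, 2 and 3, against 93.4%, 89.9% and 89.5% in sham replicates 1, 2 and 3. The exact Clopper-Pearson 95% interval was 94.9% to 96.0% in 1 wpi replicate 1 and 92.3% to 94.3% in sham replicate 1, which covers counting error only.

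rfx2, which acts in motile cilia of zebrafish embryos, measured 110, 113 and 116 CPM in 1 wpi replicates 1, 2 and 3, against 75.4, 76.2 and 76.0 CPM in sham replicates 1, 2 and 3. The groups were well apart and the spread within each was small, with a coefficient of variation of 2.44% at 1 wpi and 0.575% in sham cords. The sham values rest on 1526 to 1827 reads a library. Counting error alone is larger than 0.575% at such counts, so that spread of 3 values does not measure precision. The means were 113 ± 2.76 CPM at 1 wpi and 75.9 ± 0.436 CPM in sham cords (SD, n = 3 each), a log2 fold change of 0.58 with a standard error of 0.0561 (adjusted p = 0.0281, edgeR). By p-value it ranked 6 among all genes tested. Sham replicate 1, which lay between the groups for foxj1a, was the lowest library for rfx2. On a log2 scale from 0 at the mean of sham replicates 2 and 3 to 1 at the 1 wpi mean, it stood at 0.40 for foxj1a and at -0.02 for rfx2. The median over all genes tested was 0.73, which is no yardstick for these values. The mean of sham replicates 2 and 3 is subtracted on both sides, so unchanged genes can also give a positive median.

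foxj1a exceeded rfx2 on the log2 CPM scale by 0.89, 0.92 and 0.74 in 1 wpi replicates 1, 2 and 3, against 0.65, 0.04 and 0.17 in sham replicates 1, 2 and 3. All 1 wpi libraries lay above all sham libraries. The mean difference was 0.57 (exact permutation p = 0.1, adjusted p = 0.15 over the 3 ratios).

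rfx4, which in mouse is known from neural progenitors and the patterning of the neural tube, measured 247, 245 and 263 CPM in 1 wpi replicates 1, 2 and 3, against 185, 216 and 208 CPM in sham replicates 1, 2 and 3. The groups did not overlap and sham replicate 1 was the lowest library. The means were 252 ± 9.999 CPM at 1 wpi and 203 ± 15.9 CPM in sham cords (SD, n = 3 each), a log2 fold change of 0.31 with a standard error of 0.0871 that missed the threshold (adjusted p = 0.0643, edgeR). The exact permutation p was 0.1.

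rfx3, whose mouse ortholog is needed for ependymal cilia, measured 25.6, 30.7 and 27.9 CPM in 1 wpi replicates 1, 2 and 3, against 26.5, 20.5 and 23.6 CPM in sham replicates 1, 2 and 3. Sham replicate 1 was above 1 wpi replicate 1, so the groups overlapped. The log2 fold change was 0.25 with a standard error of 0.128 (adjusted p = 0.192, edgeR), between means of 28.1 ± 2.59 CPM at 1 wpi and 23.5 ± 2.98 CPM in sham cords (SD, n = 3 each). rfx2 exceeded rfx3 on the log2 CPM scale by 2.11, 1.88 and 2.05 in 1 wpi replicates 1, 2 and 3, against 1.51, 1.89 and 1.69 in sham replicates 1, 2 and 3. These groups overlapped (difference 0.32, exact permutation p = 0.2, adjusted p = 0.2 over the 3 ratios), so the change of rfx2 was not shown to differ from that of rfx3.

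rfx1a, a member of the same family, measured 19.5, 22.04 and 20.8 CPM in 1 wpi replicates 1, 2 and 3, against 18.4, 19.04 and 19.3 CPM in sham replicates 1, 2 and 3. The groups did not overlap, although 1 wpi replicate 1 and sham replicate 3 were close. The means were 20.8 ± 1.27 CPM at 1 wpi and 18.9 ± 0.464 CPM in sham cords (SD, n = 3 each), with a log2 fold change of 0.14 and a standard error of 0.0878 (adjusted p = 0.293, edgeR). myb, which is also a regulator of blood progenitors, measured 4.28, 4.42 and 4.23 CPM in 1 wpi replicates 1, 2 and 3, against 2.96, 5.48 and 4.54 CPM in sham replicates 1, 2 and 3. The 1 wpi libraries lay inside the range of the sham libraries. With 60 to 122 reads a library, its means were 4.31 ± 0.0988 CPM at 1 wpi and 4.33 ± 1.27 CPM in sham cords (SD, n = 3 each), a log2 fold change of -0.01 with a standard error of 0.245 (adjusted p = 0.987, edgeR).

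On all 6 libraries, with injury as the single term, edgeR, DESeq2 and limma-voom each called foxj1a and rfx2. With 1 library left out, these calls depended on which library it was and on the tool. Without sham replicate 1, edgeR called 4 of the 7 regulators higher and 0 lower, beside 29.0% and 28.2% of the genes tested in that fit. In it the log2 fold change was 1.32 for foxj1a (adjusted p = 9.42e-05), 0.57 for rfx2 (adjusted p = 0.000234), 0.35 for rfx3 (adjusted p = 0.0313) and 0.25 for rfx4 (adjusted p = 0.00984). The others were not called in it, with log2 fold changes of 0.03 for foxj1b (adjusted p = 0.821), 0.12 for rfx1a (adjusted p = 0.225) and -0.21 for myb (adjusted p = 0.237). When any 1 of the other 5 libraries was left out, edgeR called 0 genes in all, with 3026 to 3440 genes at an unadjusted p below 0.05, 3 of the 7 regulators among them. In those fits foxj1a kept a log2 fold change of 1.01 to 1.16 (adjusted p from 0.111 to 0.169) and rfx2 one of 0.56 to 0.60 (adjusted p from 0.105 to 0.169). On all 6 libraries DESeq2 called 3 regulators higher and 0 lower (foxj1a, rfx2 and rfx4, with adjusted p of 6.78e-08, 3.41e-17 and 0.00445), beside 14.6% of genes called higher and 14.5% called lower. limma-voom with sample weights called those 3 and rfx3 higher and 0 lower, beside 29.2% of genes called higher and 29.7% called lower. DESeq2 called foxj1a and rfx2 whichever library was left out.

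**Figure D2:**
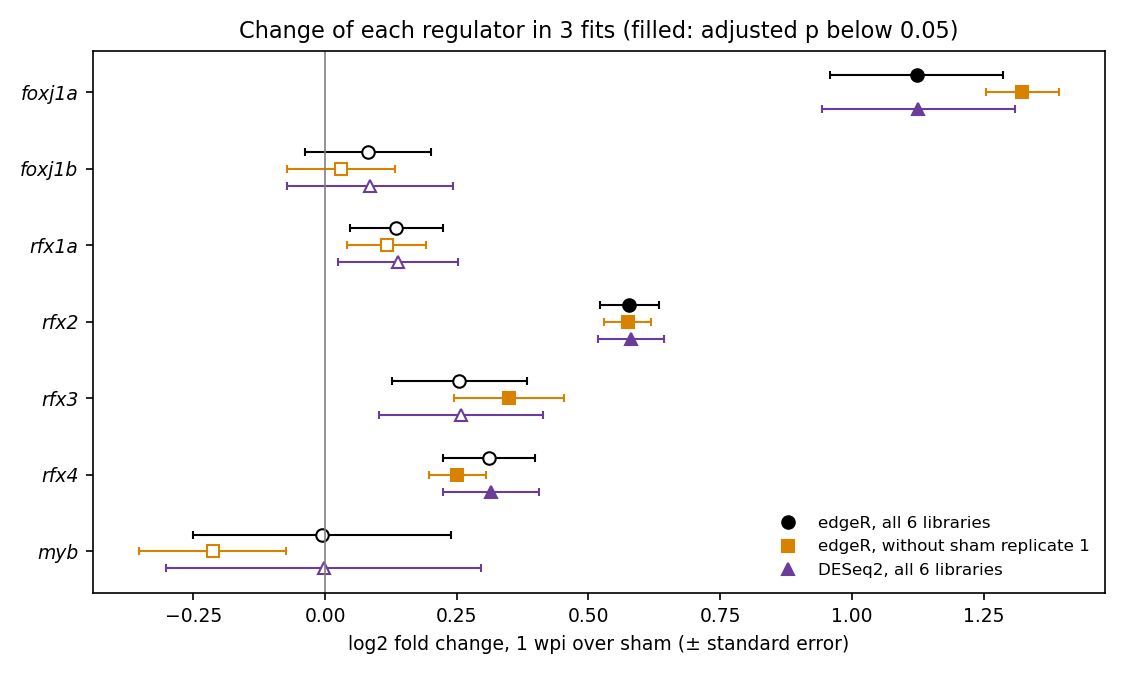
Log2 fold change of each regulator, 1 wpi over sham, in 3 fits, with the standard error as horizontal bars and a vertical line at 0. Filled symbols have an adjusted p below 0.05. foxj1a and rfx2 are filled in all 3 fits, rfx4 is filled in both alternatives and rfx3 only without sham replicate 1.

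The genes that build motile cilia were higher at 1 wpi in most cases. The list of the motile axoneme and its assembly held 156 names, some of them synonyms of 1 gene, and 79 genes were tested. edgeR called 58 higher (73.4%), 1 lower and 20 neither, beside 5.81% higher and 4.83% lower of all genes tested. At an unadjusted p below 0.05, 69 were higher and 1 lower, beside 18.6% and 19.6%. DESeq2 called 66 and 1, beside 14.6% and 14.5%, and limma-voom 71 and 2, beside 29.2% and 29.7%. Without sham replicate 1 edgeR called 71 and 2, beside 29.0% and 28.2%. The median log2 fold change of the 79 genes was 0.92, beside a median of -0.03 over all genes tested, and 74 of the 79 had a positive sign. By p-value the leading genes were rsph10b and rsph3, which encode radial spoke proteins, cfap77 (si:ch211-215c18.4 in the files), which encodes an axonemal microtubule protein, and nme5, a nucleoside diphosphate kinase family member of the axoneme. rsph10b measured 19.8, 19.7 and 19.03 CPM in 1 wpi replicates 1, 2 and 3, against 10.9, 9.43 and 9.32 CPM in sham replicates 1, 2 and 3, with no overlap. Its log2 fold change was 0.98 (standard error 0.103), that of cfap77 0.93, that of rsph3 0.88 and that of nme5 0.77 (adjusted p = 0.0281 for each of these, edgeR). The 1 gene called lower, named like its paralog after its values were seen, was spag1a, whose human ortholog encodes a cytoplasmic factor for dynein arm assembly. It measured 85.4, 89.6 and 88.3 CPM in 1 wpi replicates 1, 2 and 3, against 128, 217 and 230 CPM in sham replicates 1, 2 and 3 (log2 fold change -1.13, adjusted p = 0.0402 from edgeR). Its paralog spag1b had a log2 fold change of 0.42 that missed the threshold (adjusted p = 0.0782 from edgeR).

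The transport machinery shared by all cilia showed fewer calls. The list of intraflagellar transport (IFT), the BBSome and cilium gating held 74 names, synonyms among them. Of its genes 49 were tested, with a median log2 fold change of 0.15. edgeR called 5 higher (10.2%), 0 lower and 44 neither, beside 5.81% higher and 4.83% lower of all genes tested. At an unadjusted p below 0.05 there were 12 higher and 1 lower, beside 18.6% and 19.6% of all genes tested. DESeq2 called 8 higher and 1 lower, beside 14.6% and 14.5%, and limma-voom 16 and 7, beside 29.2% and 29.7%. Without sham replicate 1 edgeR called 15 higher and 8 lower, beside 29.0% and 28.2%. These 5 were ift57 (0.59) and ift81 (0.43), subunits of the IFT-B train, ahi1 (0.57) and tmem231 (0.54), proteins of the transition zone at the base of the cilium, and inpp5e (0.43, named after its values were seen), a ciliary phosphoinositide phosphatase; their adjusted p from edgeR lay between 0.0294 and 0.0465. ift57 measured 30.9, 32.7 and 31.9 CPM in 1 wpi replicates 1, 2 and 3, against 22.2, 20.9 and 20.4 CPM in sham replicates 1, 2 and 3, with no overlap. Summed over the list, levels were 1923, 1924 and 1903 CPM in 1 wpi replicates 1, 2 and 3 and 1709, 1853 and 1980 CPM in sham replicates 1, 2 and 3. These sums overlapped, whereas those of the motile cilia list did not, with 1971, 2087 and 1998 CPM in 1 wpi replicates 1, 2 and 3 against 1399, 1196 and 1209 CPM in sham replicates 1, 2 and 3. The transport sum is weighted to its most abundant genes, kif3a, kifap3b and kifap3a (named after their values were seen). kif3a alone measured 249, 264 and 252 CPM at 1 wpi and 244, 300 and 339 CPM in sham replicates 1, 2 and 3. The difference between the lists was not tested. Joined, the 2 lists held 128 tested genes, of which 63 were called higher and 1 lower, beside 5.81% and 4.83% of all genes tested. Without sham replicate 1 edgeR called 86 higher and 10 lower, beside 29.0% and 28.2%, and when any other library was left out it called 0.

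**Figure D3:**
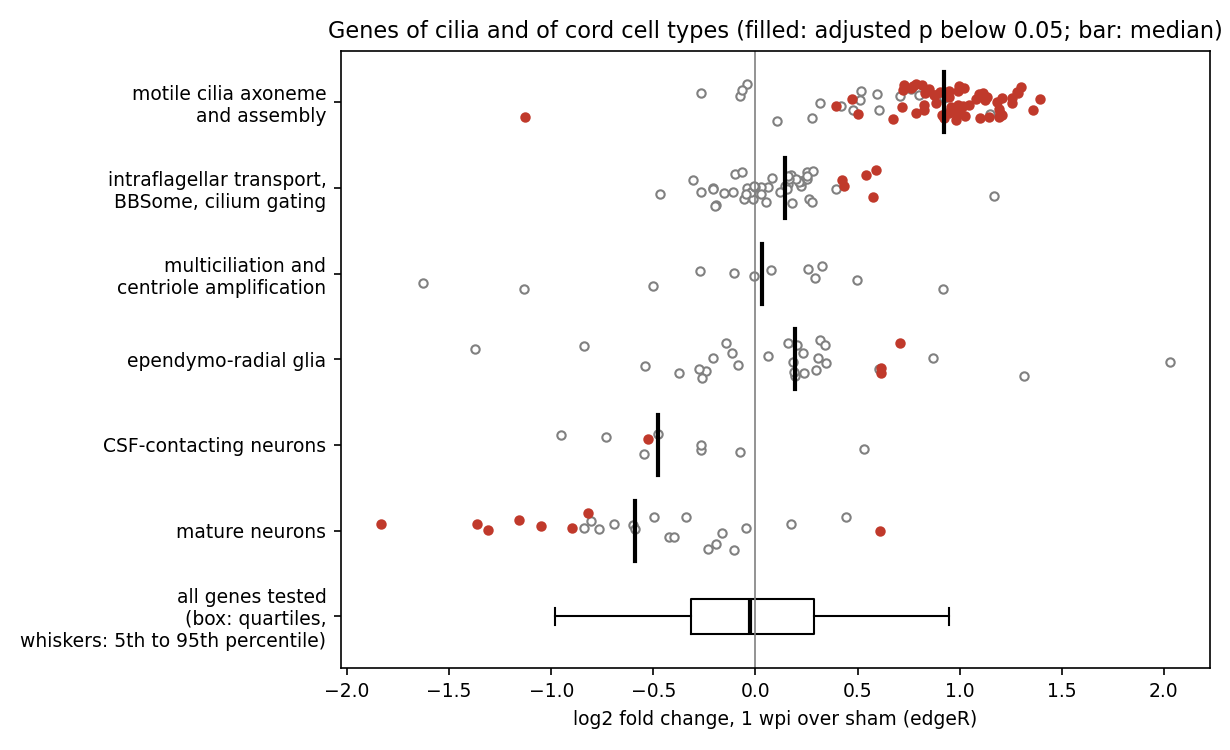
Log2 fold change, 1 wpi over sham (edgeR), of the genes of 6 lists, 1 point a gene, filled red where the adjusted p is below 0.05 and with a black bar at the list's median. The lowest row is a box of the quartiles of all genes tested with whiskers at the 5th and 95th percentiles. Most motile cilia points lie right of 0.5 and their median is 0.92, while the transport list is centred at 0.15 and the mature neuron list at -0.59.

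The list of multiciliation and centriole amplification, the programme that Multicilin starts, held 24 names, synonyms among them. Of its genes 12 were tested, myb among them. mcidas, gmnc, ccno, ccdc78 and deup1 were not among the genes counted, so the list covers that programme only in part. The 12 tested genes gave 0 calls by edgeR (6 with a positive sign, median log2 fold change 0.03). At an unadjusted p below 0.05, 2 were higher and 1 lower, DESeq2 called 2 higher and 1 lower, and limma-voom called 6 higher and 1 lower. Without sham replicate 1 edgeR called 5 higher and 1 lower. The shares over all genes in these fits are those given for the transport list. foxn4, a multiciliated cell factor in Xenopus, measured 2.66, 2.71 and 2.46 CPM in 1 wpi replicates 1, 2 and 3, against 1.28, 1.90 and 0.957 CPM in sham replicates 1, 2 and 3, and missed the threshold (log2 fold change 0.92, adjusted p = 0.0785 from edgeR). gmnn, whose product geminin restrains DNA replication licensing, measured 7.08, 8.66 and 7.10 CPM at 1 wpi and 57.2, 5.85 and 7.74 CPM in sham replicates 1, 2 and 3. The oocyte list (824 CPM) and the cell cycle list (1747 CPM) were also highest in sham replicate 1. The cell cycle list was higher at 1 wpi too, with 1201 to 1226 CPM against 574 and 525 CPM in sham replicates 2 and 3, where gmnn overlapped. The oocyte list was not, with 12.2 to 31.2 CPM at 1 wpi against 13.0 and 49.7 CPM. The part of either list in the value of gmnn was not tested. Of the family of rfx genes and the partners of Rfx5 only rfxank was tested besides the members (log2 fold change -0.05, adjusted p = 0.882). The MHC class II list, as background genes that the Rfx5 complex switches on in mammals, gave 0 calls by edgeR, DESeq2 or limma-voom and 0 at an unadjusted p below 0.05 among 2 tested genes, cd74a (log2 fold change 0.18) and cd74b (0.23). foxn4, gmnn, rfxank, cd74a and cd74b were named after their values were seen.

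Within the sham group, replicate 1 was the highest for foxj1a and for most motile cilia genes. It exceeded both other sham libraries for 70 of the 79 tested motile cilia genes (88.6%), beside 44.9% of all genes tested but the 7 regulators. Other lists went both ways: it was the highest sham library for 33 of 34 cell cycle genes, 23 of 24 muscle genes and all 15 oocyte genes. That held for 8 of 11 multiciliation, 14 of 21 blood and myeloid, 17 of 49 transport and 7 of 31 ERG genes. It held for 0 of 25 mature neuron genes, 0 of 9 genes of cerebrospinal fluid-contacting neurons and 0 of 7 erythrocyte genes. Mature neuron genes summed to 21517 CPM in it, 33619 and 38000 CPM in sham replicates 2 and 3, and 16643 to 17297 CPM at 1 wpi. A level between the groups was thus not particular to ciliary genes. Relative to the mean of sham replicates 2 and 3 on the log2 CPM scale, the median motile cilia gene stood at 1.03, 1.07 and 1.06 in 1 wpi replicates 1, 2 and 3 and at 0.42 in sham replicate 1. foxj1a stood at 1.33, 1.39 and 1.25 at 1 wpi and at 0.53 in sham replicate 1. rfx2 stood at 0.54, 0.57 and 0.61 at 1 wpi and at -0.01 in sham replicate 1, level with the other sham libraries. rfx4 stood at 0.22, 0.21 and 0.31 at 1 wpi and at -0.19 in sham replicate 1.

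**Figure D4:**
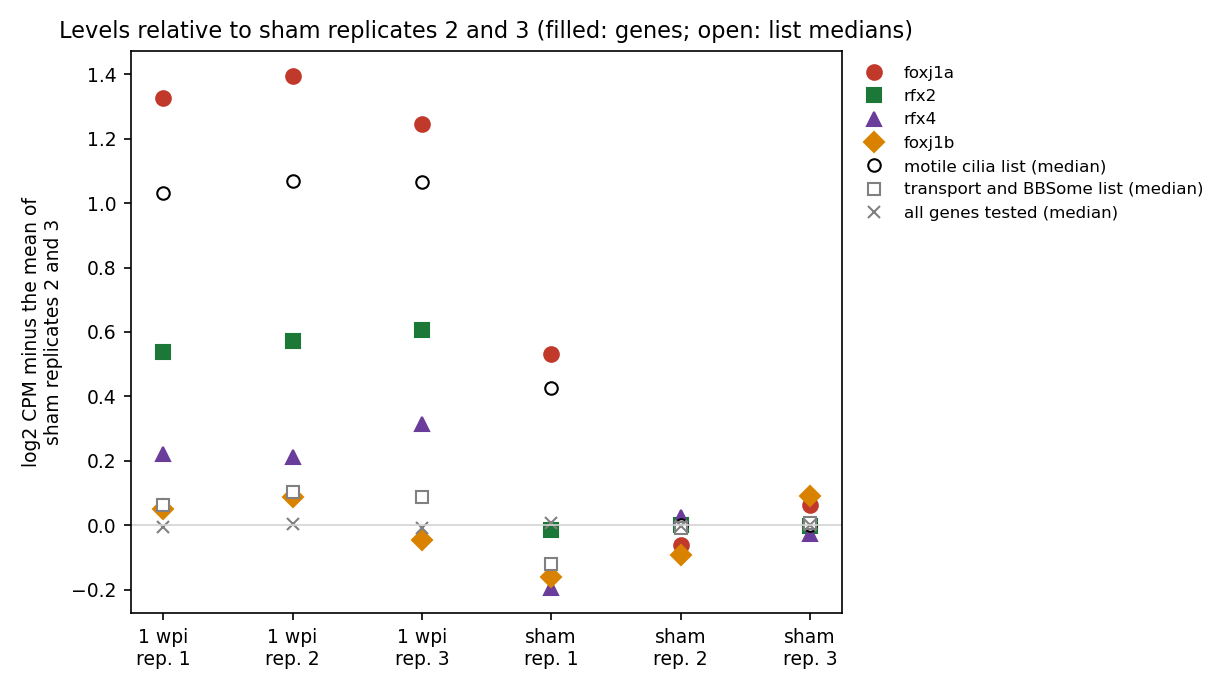
Log2 CPM of foxj1a, rfx2, rfx4 and foxj1b (filled) and medians of 2 lists and of all genes tested (open symbols and crosses), each minus its own mean over sham replicates 2 and 3, in the 6 libraries. In sham replicate 1 foxj1a (0.53) and the motile cilia median (0.42) lie between the groups, while rfx2 (-0.01), rfx4 (-0.19) and the transport median (-0.12) do not.

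Genes with the pattern most like that of foxj1a and rfx2 were ranked by Pearson correlation of log2 CPM over the 6 libraries, among 9625 genes. These correlations are descriptions: the 6 points fall into 2 groups, and the difference between the groups enters each value. Among the nearest to foxj1a were ifit12 (r = 0.9995), tekt4 (0.9992), nudt9 (0.998) and tmcc1b (0.998). tekt4, which is in the motile cilia list, encodes a tektin filament protein of the axoneme, and ifit12 belongs to a family of interferon-induced genes. tekt4 measured 13.0, 13.5 and 12.7 CPM in 1 wpi replicates 1, 2 and 3, against 6.57, 3.99 and 4.37 CPM in sham replicates 1, 2 and 3 (log2 fold change 1.39). Nearest to rfx2 were msxb (r = 0.999), glt8d1 (0.997), fam221a (0.997), stm (0.996) and angpt2b (0.995). msxb encodes a homeobox factor and angpt2b an angiopoietin, and none of the 5 is in a ciliary list. stm, which encodes the otolith matrix protein Starmaker, measured 14154, 14924 and 14473 CPM in 1 wpi replicates 1, 2 and 3, against 9804, 9803 and 10077 CPM in sham replicates 1, 2 and 3. The groups did not overlap and it missed the threshold (adjusted p = 0.0510, edgeR). A correlation with foxj1a above 0.9 was reached by 66 of the 79 motile cilia genes (83.5%), beside 15.03% of all genes tested but the 7 regulators, 9 of the 49 transport genes and 8 of the 21 blood and myeloid genes. For rfx2 that count was 57 of 79, beside 1033 of 12797 genes in all, for rfx4 1, beside 294, and for foxj1b 0, beside 31.

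The markers of the cells that carry these cilia were measured beside them. Of 31 tested genes listed for ERGs edgeR called 3 higher and 0 lower, beside 5.81% and 4.83% of all genes tested. The list's median log2 fold change was 0.19. The 3 called were sox2 (0.62) and sox9a (0.62), which encode transcription factors of neural progenitors, and vim (0.71), an intermediate filament gene. At an unadjusted p below 0.05, 7 were higher and 4 lower, beside 18.6% and 19.6% of all genes tested. DESeq2 called 8 higher and 2 lower, beside 14.6% and 14.5% of all genes. limma-voom called 9 and 8, beside 29.2% and 29.7%, and edgeR without sham replicate 1 9 and 7, beside 29.0% and 28.2%. gfap, a filament gene of glia, measured 9975, 10864 and 10985 CPM in 1 wpi replicates 1, 2 and 3, against 7115, 9609 and 8336 CPM in sham replicates 1, 2 and 3, and did not pass the test (log2 fold change 0.34, adjusted p = 0.176 from edgeR). Summed over the list, ERG genes gave 26570, 27350 and 27532 CPM in 1 wpi replicates 1, 2 and 3 and 19150, 25215 and 22105 CPM in sham replicates 1, 2 and 3. Per 1000 CPM of that sum, of which gfap made up 38.5%, foxj1a stood at 7.72, 7.87 and 7.06 at 1 wpi, against 6.18, 3.11 and 3.86 in sham replicates 1, 2 and 3, and the groups stayed apart. rfx2 stood at 4.16, 4.14 and 4.21 at 1 wpi, against 3.94, 3.02 and 3.44 in sham replicates 1, 2 and 3, also apart. rfx4 stood at 9.28, 8.96 and 9.56 at 1 wpi, against 9.66, 8.55 and 9.39 in sham replicates 1, 2 and 3, where the groups overlapped. The ERG sum is weighted to abundant genes such as gfap. The log2 fold change of rfx2 (0.58) was no larger than those of sox2 (0.62), sox9a (0.62) and vim (0.71). That of foxj1a was 1.12 (edgeR for each). A rise of rfx2 beyond these 3 called ERG genes was thus not shown, and ratios to them were not tested. Being the called genes, they stand for the high end of the list and not for the list. In 12 of the 31 ERG genes all 1 wpi libraries lay above all sham libraries, and in 4 all lay below, beside 22.9% and 21.8% of all genes tested. Among the 4 were cyp19a1b (-1.38) and hepacam2 (-0.84), named after their values were seen and not called by edgeR.

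Other cells at the central canal gave calls that depended on the fit. Of 12 tested genes listed for the floor plate and Reissner fiber edgeR called 0. sspo, listed for the Reissner fiber, was not among the genes counted, so these are mainly floor plate genes. At an unadjusted p below 0.05, 2 were higher and 3 lower. DESeq2 called 1 and 2, limma-voom 2 and 5, and edgeR without sham replicate 1 2 and 5. The shares over all genes in these fits are those given for ERGs. The list summed to 334 to 345 CPM at 1 wpi and 315 to 397 CPM in sham cords. Of 9 tested genes of cerebrospinal fluid-contacting neurons 1 was called lower and 0 higher by edgeR (5 and 1 at an unadjusted p below 0.05, 4 and 1 by DESeq2, 7 and 1 by limma-voom, 8 and 1 without sham replicate 1). For these counts too, the shares over all genes are those given for ERGs. The gene called in the edgeR fit of all 6 libraries was the urotensin-related neuropeptide gene urp2, with 68.0, 65.7 and 72.7 CPM in 1 wpi replicates 1, 2 and 3 against 99.4, 91.9 and 106 CPM in sham replicates 1, 2 and 3 (log2 fold change -0.53, adjusted p = 0.0312 from edgeR).

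By edgeR, markers of further cell types gave calls in some lists and 0 in others. Over all genes tested, edgeR called 5.81% higher and 4.83% lower, and DESeq2 14.6% and 14.5%. limma-voom called 29.2% and 29.7%, and edgeR without sham replicate 1 29.0% and 28.2%. Of 25 tested genes of mature neurons 7 were called lower and 1 higher (20 and 2 without sham replicate 1), with a median log2 fold change of -0.59 and sums of 16643 to 17297 CPM at 1 wpi and 21517 to 38000 CPM in sham cords. Among them the neurofilament gene nefmb (-1.84), the glycine transporter gene slc6a5 (-1.36) and the choline acetyltransferase gene chata (-1.05) were lower, and the synaptic vesicle gene vamp2 (0.61) was higher. Of 21 tested blood progenitor and myeloid genes 4 were called higher and 0 lower by edgeR (9 and 1 at an unadjusted p below 0.05, 9 and 0 by DESeq2, 11 and 5 by limma-voom, 12 and 3 without sham replicate 1): apoeb (1.97), an apolipoprotein gene of microglia, cebpa (0.71), mpeg1.1 (0.71), a macrophage gene, and spi1a (0.52), a myeloid transcription factor gene. Their list summed to 9390 to 10311 CPM at 1 wpi and 2299 to 5037 CPM in sham cords. Most of that sum was apoeb, with 7485 to 8382 CPM at 1 wpi and 1331 to 3412 CPM in sham cords. Of 11 tested genes of oligodendrocytes and myelin the myelin gene plp1a (0.68) and the transcription factor gene tcf7l2 (1.00) were higher and 0 were lower by edgeR (4 and 0 at an unadjusted p below 0.05, 4 and 1 by DESeq2, 4 and 3 by limma-voom, 3 and 3 without sham replicate 1). The more abundant myelin genes mag (0.48), mpz (0.10), plp1b (-0.33) and mbpb (-0.38), named after their values were seen, were not called by edgeR. This list summed to 10026 to 10584 CPM at 1 wpi and 8984 to 12884 CPM in sham cords, so its sums overlapped. Of 15 tested genes of skin and bone 1 was called higher (3 by DESeq2, 7 by limma-voom, 8 without sham replicate 1), the osteocalcin gene bglap, with 17.5, 18.02 and 14.8 CPM in 1 wpi replicates 1, 2 and 3 against 9.93, 6.50 and 6.91 CPM in sham replicates 1, 2 and 3. edgeR called 0 genes among 34 tested genes of the cell cycle, 24 of skeletal muscle, 15 of oocytes and 7 of erythrocytes. At an unadjusted p below 0.05 there were 3 higher, 1 higher, 8 lower and 4 lower in these lists, in that order. DESeq2 called 3 higher, 1 higher, 11 lower and 3 lower, and limma-voom 31 higher, 8 higher, 0 and 7 lower. Without sham replicate 1 edgeR called 33 of the 34 cell cycle genes and 14 of the 24 muscle genes higher, 0 oocyte genes and 5 erythrocyte genes lower. The cell cycle list summed to 1201 to 1226 CPM at 1 wpi and 525 to 1747 CPM in sham cords, the erythrocyte list to 255 to 629 CPM at 1 wpi and 548 to 953 CPM in sham cords, and the skin and bone list to 2132 to 3060 CPM at 1 wpi and 1017 to 2115 CPM in sham cords. The part of these cell types, and of the share of reads outside genes, in the values of foxj1a and rfx2 was not tested.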

How the data were processed

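RNA of 6 spinal cord samples was sequenced as single-end reads of 50 bases. The deposited files hold raw counts per gene symbol: the authors aligned reads to danRer10 with TopHat2 (2.2.1 in the submitters' notes, which also name Trim Galore), kept alignments above a mapping quality of 30 with SAMtools 1.3.1 and counted with HTSeq 0.6.0. No source read here names the annotation or the strand setting. Reads shared by overlapping or antisense genes can thus not be assigned, and those of near-identical copies may have been removed. Rows that name no gene were left out of library sizes; reads without a feature were 41.2% to 51.3% and ambiguous reads 0.509% to 0.611% of each file.

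No replicate pair agreed within sampling noise (chi-square 11.9 to 168 for each degree of freedom). In R 4.3.3, edgeR 4.0.16 kept genes by filterByExpr (a count of 10, a total of 15), scaled libraries by TMM and tested injury as the single term of a quasi-likelihood fit, without a replicate block. Benjamini-Hochberg adjustment ran over 12804 genes. A standard error is the log2 fold change divided by the root of F. Log2 CPM used a prior count of 2. Ratios of genes were compared by exact 2-sided permutation. DESeq2 1.42.0, limma 3.58.1 voom with sample weights, other scalings and filters, a replicate block and each library left out were the alternatives. Scripts were tested on simulated data.

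The members and the gene lists were chosen with earlier results of these data known, so lists are described by counts and medians only. The lists held 550 names, some of them synonyms of 1 gene, and 372 genes in the files were matched to them. Of these, 37 stood in the files under another symbol, older or newer. They were matched through RefSeq names of a different assembly whose coordinates were not used. Named were all members, up to 4 called genes of each list by p-value, and for each called member the 5 genes (mean of at least 5 CPM) with the highest Pearson correlation, of which 1 is not reported here; others are said to be named after their values were seen. Gene lengths were not used here, so a ratio or read share of 2 genes is compared between libraries only and does not rank the genes.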

Additional observations from a re-analysis of the deposited data

How the results depend on the processing

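foxj1a and rfx2 were called higher under RLE and upper-quartile scaling, TMM without genes of other tissues, no filter and a filter of 10 counts in every library. The number of regulators called higher, 2 in the edgeR fit of all 6 libraries, was 4 with limma-voom and ranged from 0 to 4 when 1 library was left out (edgeR or DESeq2). The number of ciliary genes called higher, 63, ranged from 0 to 86 with 1 library left out, and the number called lower, 1, was 2 with DESeq2, 9 with limma-voom and 0 to 10 with 1 library left out. Over all genes, edgeR called 744 higher and 618 lower, DESeq2 1894 and 1885, limma-voom 3740 and 3805, and edgeR without sham replicate 1 3750 and 3647. The cause of these differences was not tested. Nothing read here says whether same-numbered libraries were prepared together. Their deviations from the group means correlated at -0.165, -0.026 and 0.067, which cannot decide it with 3 libraries a group. With a replicate block edgeR called 0 regulators, 0 ciliary genes higher, 0 lower and 0 genes in all, with 4322 genes at an unadjusted p below 0.05 and an adjusted p of 0.0847 for both foxj1a and rfx2. The log2 fold change of myb, close to 0, was 0.0351 with the replicate block and ranged from -0.21 to 0.20 with 1 library left out. The ratios of foxj1a to foxj1b, rfx2 to rfx3 and foxj1a to rfx2 kept their sign with a prior count of 0.5 and with each library left out. myb and foxj1b rest on 60 to 278 reads a library, which limits their precision.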
